A study of Drosophila melanogaster with 2 samples.

Results

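The core circadian clock of Drosophila melanogaster was examined for binding by CG32772, a protein tagged here with the green fluorescent protein eGFP. The clock genes were 9 genes listed by their known role, per, tim, Clk, cyc, vri, Pdp1, cwo, cry and dco, of 13968 annotated protein-coding genes on the chromosome arms. The rule used no measured value, although earlier results of these data were known when the genes were listed. In the list called from both libraries, 4 of the 9 had a peak summit within 500 bp of an annotated transcription start site (TSS). They were vri, Pdp1, cry and dco, and 17.1% of all protein-coding genes had such a summit. In the gene body or within 5 kb of it, 6 of 9 (those 4, cwo and cyc) had one, against 45.3% of all genes. The remaining 3 genes, per, tim and Clk, had no thresholded peak in either interval in any list.

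The data are chromatin immunoprecipitation sequencing (ChIP-seq) peak lists. There was 1 group with 2 biological replicates, each from whole embryos aged 0 to 24 h from a transgenic fly line that makes the CG32772-eGFP fusion protein, with an anti-GFP antibody used for the precipitation. The labels name no other condition, no clock time and no dissected tissue, so the lists average over all cells and stages of the embryo, and no control line was analysed here. The files hold peaks without read counts, so the sequencing depth is unknown, and the signal of each peak is the authors' value, with a scaling that is not stated, used here only for ranks within a list.

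In the fly clock, the proteins CLK and CYC bind E-box sequences together and activate per, tim, vri, Pdp1 and cwo. PER and TIM accumulate, enter the nucleus and repress CLK and CYC, while VRI represses and PDP1 activates the Clk gene in a second loop, and CWO competes at E-boxes. The kinase Doubletime, encoded by dco, phosphorylates PER and marks it for degradation, and the light receptor cryptochrome, encoded by cry, triggers the loss of TIM in light.

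The sequences under the 4 promoter summits are shown first, since every count of promoter binding below rests on them, followed by the strongest intronic summits of Pdp1, dco and cwo. Each is the summit base with 100 bp either side, on the plus strand at dm6 coordinates, taken from RefSeq's release of that assembly. Capitals mark matches, on either strand, to the motifs searched below.
dco promoter (chr3R:31061426-31061626): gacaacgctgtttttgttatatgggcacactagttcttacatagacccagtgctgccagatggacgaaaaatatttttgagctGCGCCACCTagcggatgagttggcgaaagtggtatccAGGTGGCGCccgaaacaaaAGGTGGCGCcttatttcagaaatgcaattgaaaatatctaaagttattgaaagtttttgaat
vri promoter (chr2L:5299319-5299519): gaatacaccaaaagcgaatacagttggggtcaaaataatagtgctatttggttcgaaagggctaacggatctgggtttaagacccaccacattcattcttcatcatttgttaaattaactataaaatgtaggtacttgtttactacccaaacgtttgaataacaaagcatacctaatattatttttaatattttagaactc
Pdp1 promoter (chr3L:7855862-7856062): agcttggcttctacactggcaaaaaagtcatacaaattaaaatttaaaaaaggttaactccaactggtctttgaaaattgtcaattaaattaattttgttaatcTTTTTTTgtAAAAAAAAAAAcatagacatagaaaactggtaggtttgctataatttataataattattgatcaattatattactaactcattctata
cry promoter (chr3R:19211820-19212020): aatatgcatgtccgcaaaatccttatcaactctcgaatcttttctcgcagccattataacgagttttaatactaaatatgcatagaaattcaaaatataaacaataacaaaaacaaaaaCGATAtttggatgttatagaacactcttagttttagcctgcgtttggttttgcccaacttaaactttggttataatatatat
Pdp1 intron (chr3L:7851000-7851200): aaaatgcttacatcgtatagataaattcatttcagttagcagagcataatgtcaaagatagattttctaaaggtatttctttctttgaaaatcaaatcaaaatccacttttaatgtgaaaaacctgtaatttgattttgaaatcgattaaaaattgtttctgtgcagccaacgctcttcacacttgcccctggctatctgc
dco intron (chr3R:31059108-31059308): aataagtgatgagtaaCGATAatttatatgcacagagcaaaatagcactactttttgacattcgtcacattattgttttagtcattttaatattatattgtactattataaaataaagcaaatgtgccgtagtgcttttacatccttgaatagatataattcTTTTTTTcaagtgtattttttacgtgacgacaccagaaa
cwo intron (chr3R:10393797-10393997): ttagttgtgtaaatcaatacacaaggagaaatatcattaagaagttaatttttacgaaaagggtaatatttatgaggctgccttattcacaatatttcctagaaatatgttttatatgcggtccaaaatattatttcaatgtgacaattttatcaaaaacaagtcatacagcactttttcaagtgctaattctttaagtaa

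The dco promoter holds 3 copies of AGGTGGCGC, the core of the site of the insulator protein CTCF, in capitals above. The Pdp1 promoter holds runs of T and A beside its summit, and the cry promoter, the Pdp1 intron and the cwo intron are rich in A and T without a searched motif other than the short CGATA at cry.

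The promoter count of 4 of 9 clock genes compares with 17.1% of all protein-coding genes in the joint conservative list, the main list here, and with 17.8% in the other joint list. The same 4 genes were found in replicate 1's own list, where 12.9% of genes had a promoter summit, and in replicate 2's own list, where the share was 14.1%. All 4 were therefore found in both own lists, against 10.8% of all genes. A gene with several start sites has more room for a promoter summit, and these shares were not split by the number of start sites. The 4 genes had 3 (vri), 4 (Pdp1), 1 (cry) and 2 (dco) start sites. No test of the count was made.

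For the gene body and 5 kb either side, 6 of 9 clock genes had a summit in the main list, against 45.3% of all genes, and 6 of 9 had one in the other joint list, against 47.1%. In replicate 1's own list 6 of 9 clock genes had one, against 36.1% of genes, and in replicate 2's own list 5 of 9, against 38.9%. The difference is cyc, which replicate 2's own list lacks. Summits in both own lists were found for 5 of 9 clock genes, against 31.8% of all genes. Long genes give more room for a summit. Among genes under 5 kb, cry and cyc both had one, against 40.7% of genes of that span. Of the 5 clock genes of 5 to under 20 kb, cwo and dco had one, against 56.3%, and both genes of 20 kb or more, Pdp1 and vri, had one, against 66.2%. With 2 to 5 genes in each class, these shares are descriptions of single genes. Inside the gene body alone a summit was found for 4 of 9 clock genes (vri, Pdp1, cwo and dco), against 12% of all genes. That 12% was not split by span. These 4 genes span 7126 to 55912 bp, whereas 10476 of the 13968 genes span under 5 kb.

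**Figure D1:**
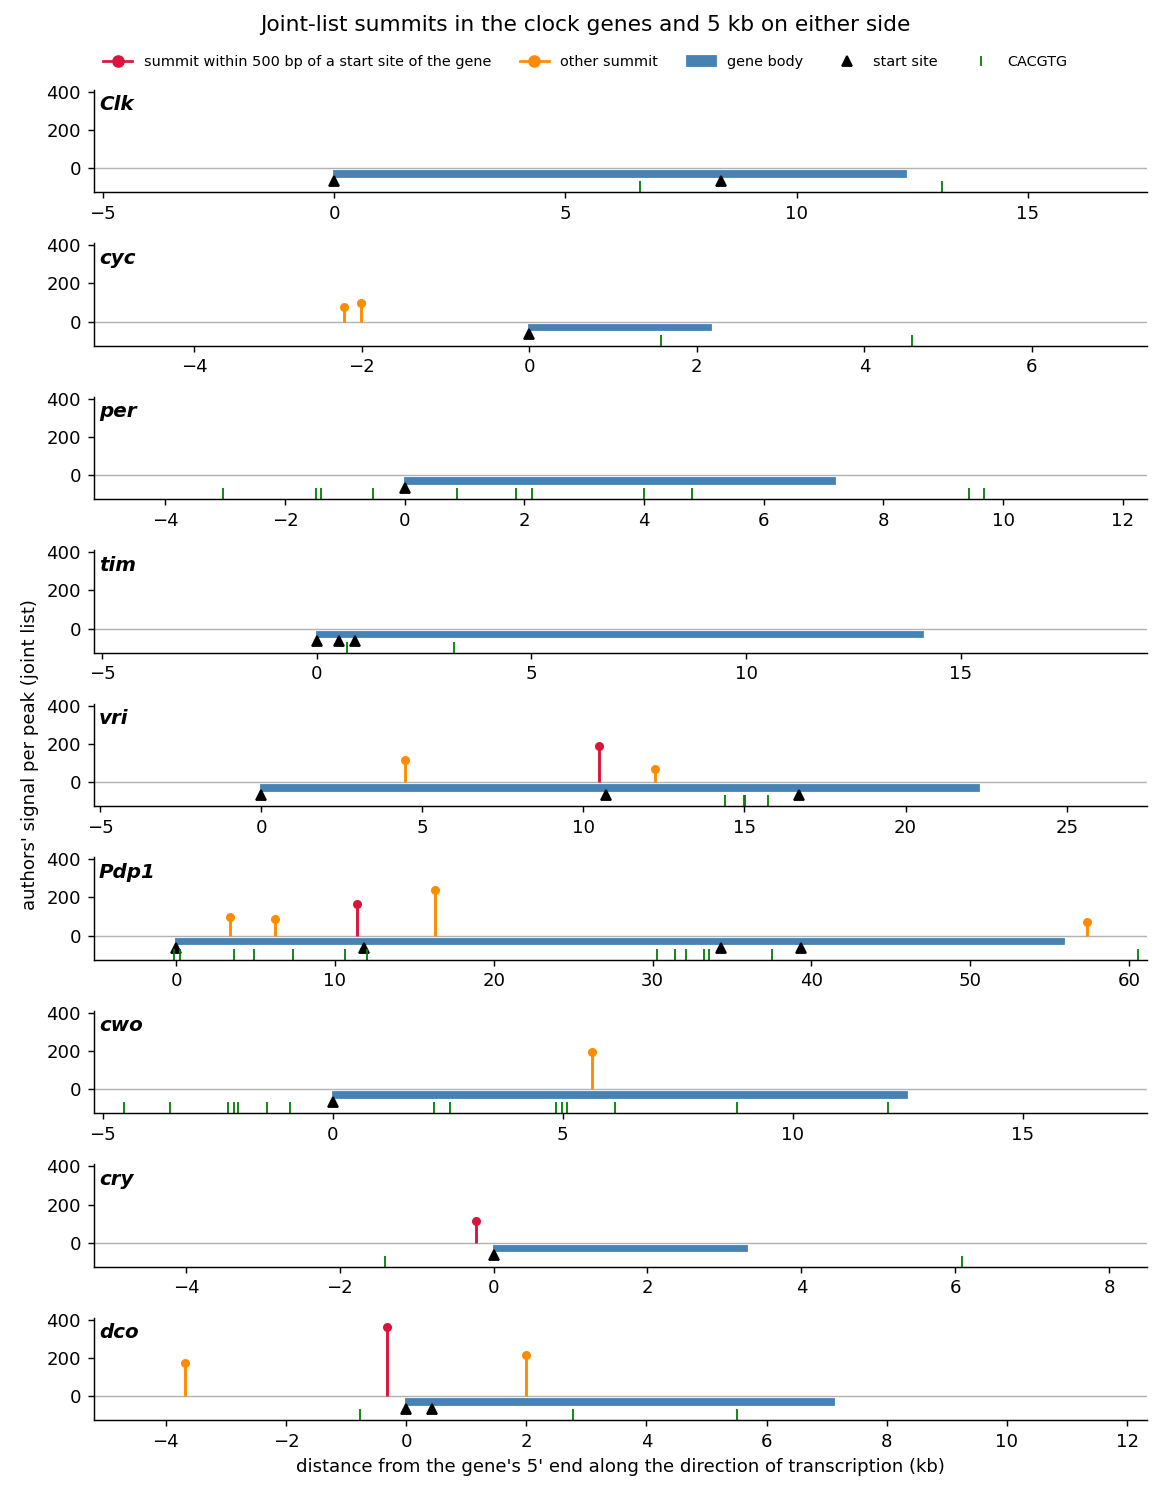
The 9 clock genes drawn along their own coordinates, with the distance in kb from the gene's 5' end on the horizontal axis and the authors' main-list signal on the vertical axis. Stems are main-list summits within the gene body and 5 kb either side, bars gene bodies, triangles start sites and short ticks CACGTG sites. Pdp1 and vri carry several summits each. Those inside Pdp1 lie in its 5' part, and those inside vri in its 5' and middle parts. The highest stem is at dco, at 363.7, and per, tim and Clk have none.

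The activator genes differed from each other. Clk, which encodes the E-box activator CLK (FBgn0023076, chr3L:7763233-7775603, minus strand), had no thresholded peak. A single main-list summit, at 7810030, was the nearest to both Clk start sites, 34427 and 42800 bp away. Neither library had even a ranked, unthresholded call within 500 bp of a Clk start site, whereas 68.6% of all genes had one in replicate 1's ranked list and 58.7% in replicate 2's. The strongest ranked call within 5 kb of Clk had a signal of 32.6 and a score of 320 in replicate 1 and a signal of 24.2 and a score of 198 in replicate 2. Both scores are under the 830 at which the thresholded lists begin, and the calls lay 433 and 469 bp from the start of the neighbour Hn.

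The gene of its partner, cyc (FBgn0023094, chr3L:19813770-19815938, minus strand), had 2 main-list summits, both about a gene length upstream of cyc, in the promoter shared by Fibp and Deaf1, which are transcribed away from each other. The summit at 19817945 had a signal of 99.3 (rank 2863 of 4699) and lay 22 bp from a Fibp start, inside the Fibp gene. The summit at 19818151 had a signal of 76.0 (rank 3905) and lay 23 bp from the Deaf1 start. They lay 2007 and 2213 bp from the cyc start, so they belong to cyc only by the 5 kb flank. The other joint list held the first of them but not the second. The libraries differed here. Replicate 1's own list had 1 peak that overlaps both, with a signal of 64.4 (rank 1938 of its list), and replicate 2 had a ranked call of signal 45.4 whose score of 42 is under the threshold. At the cyc start itself replicate 1 had 1 weak call, of signal 6.99, and replicate 2 had none.

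The repressor genes per and tim had no thresholded peak. For per (FBgn0003068, chrX:2685580-2692780, plus strand), whose protein represses CLK and CYC, the nearest main-list summit was 18306 bp from the start. Its strongest promoter call in the ranked lists had a signal of 24.2 (rank 16567, score 31) in replicate 1, 368 bp upstream, and of 12.4 (rank 52668, score 20) in replicate 2, 319 bp upstream. Among all genes with a promoter call, the best call had a median signal of 21.1 in replicate 1 and 25.5 in replicate 2, so per sat just above the median of replicate 1 and below the lower quartile of replicate 2, 17.1.

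The gene tim (FBgn0014396, chr2L:3493986-3508119, minus strand) encodes the light-sensitive partner of PER. The main-list summit nearest to the 3 tim start sites was 22208 to 23109 bp away. The libraries disagreed on tim. Replicate 2 had a promoter call at chr2L:3507391-3507710, 53 bp from the start at 3507604, with a signal of 48.5 (rank 3560) and a score of 823, just under the threshold of 830. Replicate 1's strongest call at the same start had a signal of 17.5 (rank 38151) and a score of 197. The authors' irreproducible discovery rate (IDR) is the estimated chance that a call belongs to the irreproducible part of the lists compared. In each library's own ranked list it was 0.0104 (replicate 2) and 0.335 (replicate 1). Of the clock genes with no thresholded promoter peak, tim came nearest to having one, in replicate 2 only.

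The second-loop genes vri and Pdp1, whose proteins repress and activate Clk, carried most of the summits, 8 of the 15 found over all clock genes. These genes are also the longest of the clock genes, at 22280 bp (vri) and 55912 bp (Pdp1), and so had the longest intervals searched. For vri (FBgn0016076, chr2L:5288944-5311223, plus strand), the promoter summit was 228 bp upstream of the internal start at 5299647, used by the transcript vri-RC. Its peak (chr2L:5299244-5299593) had a joint signal of 190.4 (rank 1197), a signal of 92.6 (rank 1179) in replicate 1's own list and of 94.2 (rank 1330) in replicate 2's. The summits of both libraries lay 0 and 19 bp from the joint one. The start of vri-RE at 5288944 and the start shared by 3 transcripts at 5305650 had no main-list summit within 500 bp, the nearest being 4467 and 4474 bp away. A second, intronic vri peak (chr2L:5293236-5293585) had a joint signal of 115.3 and was in both own lists, at ranks 2728 and 2296. The weakest vri peak, also intronic (chr2L:5301001-5301350, signal 66.7, rank 4302), was in neither own list, with scores of 627 in replicate 1's ranked list and 395 in replicate 2's.

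Pdp1 (FBgn0016694, chr3L:7811458-7867369, minus strand), the longest clock gene at 55912 bp, had 5 summits. Its strongest was an intronic peak of 112 bp (chr3L:7851017-7851128), 4448 bp downstream of the start at 7855548, with a joint signal of 239.8 (rank 826) and ranks of 655 in replicate 1's own list and 1082 in replicate 2's. The promoter summit lay 414 bp upstream of that start, which 7 of the 13 Pdp1 transcripts share, in a peak (chr3L:7855787-7856136) with a joint signal of 165.2 (rank 1473) and ranks of 1268 and 1916. These 2 sites were called in both libraries. The other 3 start sites of Pdp1 had no main-list summit within 500 bp.

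The remaining Pdp1 peaks were weaker and not called in both libraries. The peaks at chr3L:7863787-7864136 (signal 96.0) and chr3L:7860976-7861325 (signal 88.1) were in replicate 1's own list, with signals of 55.1 and 49.1. In replicate 2 their ranked scores were 535 and 641, below the threshold. The last (chr3L:7809855-7810204, signal 71.4) was in neither own list and lay 205 bp from the start of the neighbour CG32369. Replicate 2's own list had further summits in the Pdp1 interval at 7870333, 7860025 and 7851243, with signals of 55.4, 51.1 and 15.3. The first lay outside Pdp1, 2964 bp upstream of the start at 7867369. The peak of the last (chr3L:7851083-7851402) overlaps the strongest joint Pdp1 peak. Among the 1020 genes of 20 kb or more, the median was 1 summit, and 133 (13.0%) had 5 or more, with 22 the highest.

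For cwo (FBgn0259938, chr3R:10388258-10400752, plus strand), which encodes a repressor that competes at E-boxes, a single intronic summit at 10393897 lay 5639 bp downstream of its only start site. It had a joint signal of 193.2 (rank 1164), a signal of 111.9 (rank 877) in replicate 1's own list and of 72.0 (rank 1984) in replicate 2's. The summits of both libraries were within 1 bp of the joint summit, the closest agreement of any clock peak. At the cwo start itself replicate 1 had no ranked call, and replicate 2 had one of signal 16.4 and score 81, 461 bp downstream.

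The light receptor gene cry (FBgn0025680, chr3R:19212154-19215442, plus strand) had 1 peak (chr3R:19211745-19212094), 234 bp upstream of its single start. Its joint signal was 112.5 (rank 2433). It was near the bottom of replicate 1's own list, with a signal of 44.9 at rank 2816 of 3012 and a score of 864, and in the middle of replicate 2's, with a signal of 73.2 at rank 1924 of 3537. Of the 4 promoter peaks it was the weakest, and in replicate 1 it lay just above the score of 830.

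The kinase gene dco (FBgn0002413, chr3R:31054085-31061210, minus strand) had the strongest clock peak, 316 bp upstream of the start at 31061210 used by 4 transcripts. The 207 bp peak (chr3R:31061431-31061637) had a joint signal of 363.7 (rank 398 of 4699), a signal of 167.7 (rank 443) in replicate 1's own list and of 197.6 (rank 364) in replicate 2's, with summits 5 and 18 bp from the joint one. A second dco peak lay in an intron (chr3R:31059033-31059382), 2002 bp downstream of that start and 1565 bp downstream of the dco-RE start at 31060773, with a joint signal of 215.8 (rank 971) and ranks of 1205 and 928. The third (chr3R:31064710-31065059, signal 174.4, rank 1357) lay 3675 bp upstream of dco but 368 bp from the start of Sox100B, the neighbouring gene. All 3 dco peaks were in both own lists, and all 3 were stronger than the list's median signal of 115.4.

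**Figure D2:**
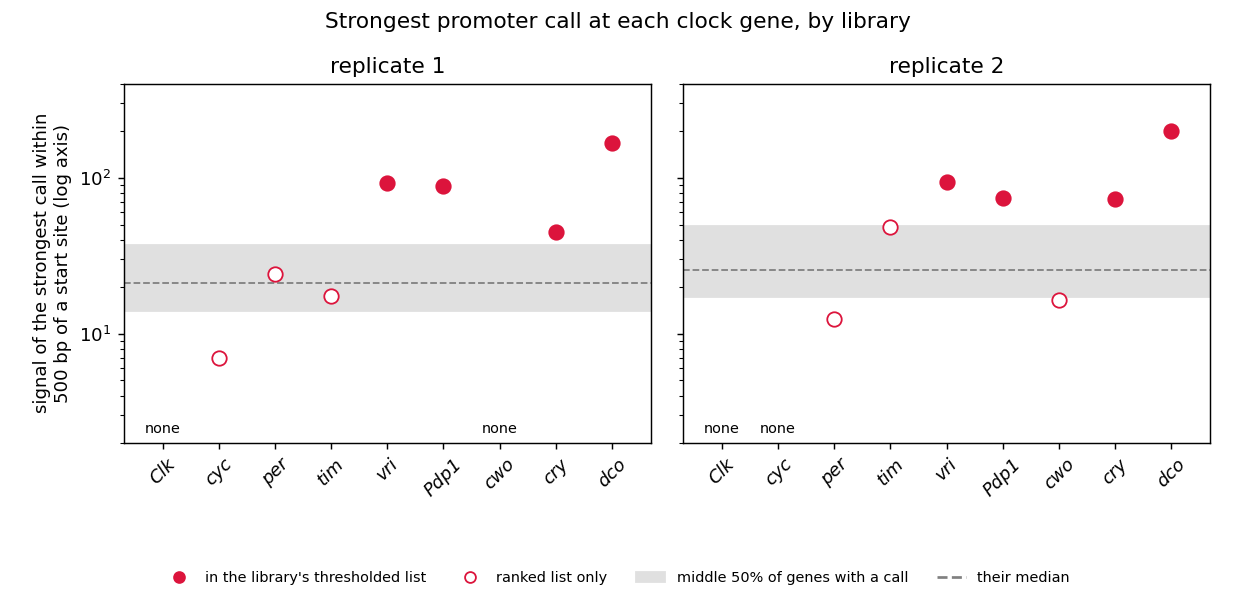
Signal of the strongest call within 500 bp of a start site for each clock gene, on a log axis, in replicate 1's and replicate 2's ranked lists. Filled markers are calls in the library's thresholded list, open markers are in the ranked list only, and "none" marks a library with no call. The grey band is the middle 50% of all genes with a call and the dashed line their median. The calls of dco, vri, Pdp1 and cry are thresholded in both libraries, and Clk has none in either.

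The promoter order of the clock genes was similar in both libraries at the top and not below. Ranked by the best promoter call among the 9579 genes with one in replicate 1, dco stood at 419, vri at 899, Pdp1 at 962 and cry at 1956, followed by per at 3987, tim at 5898 and cyc at 9104. Among the 8202 genes with one in replicate 2, dco stood at 316, vri at 966, Pdp1 at 1308, cry at 1311, tim at 2055, cwo at 6384 and per at 7403. The first 4 genes came in the same order, and per and tim changed places. Pdp1 and cry were far apart in replicate 1 and nearly level in replicate 2, so the spread between libraries does not settle their order.

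**Figure D3:**
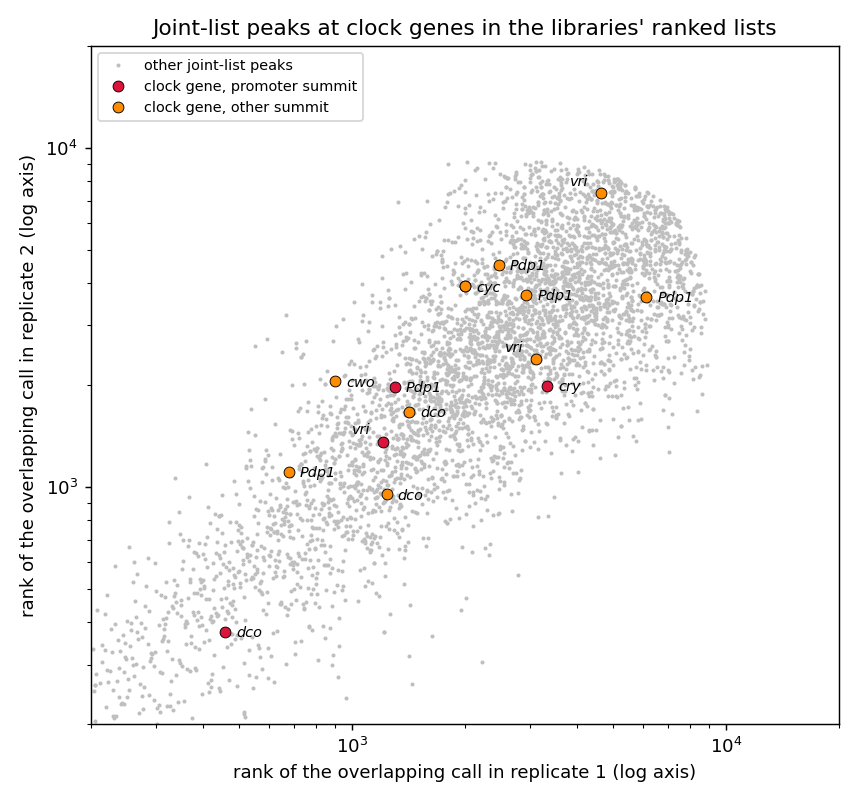
Rank of each main-list peak in replicate 2's ranked list against its rank in replicate 1's, both on log axes that begin at 200, so stronger peaks lie outside the plot. Red points are clock gene promoter summits, orange points other clock gene summits and grey points the other main-list peaks. The dco promoter peak is the strongest coloured point on both axes, and the cyc peaks share a point.

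Several properties of the 15 clock peaks were close to those of the rest of the list. Their median signal was 115.3, against 115.5 for the other 4684 main-list peaks, and their range was 66.7 to 363.7. Both own lists held 9 of the 15 (60%), against 50.9% of the others. Of the 15, 4 were in replicate 1's list only, 0 in replicate 2's only and 2 in neither. Of the other 4684, 467 were in replicate 1's list only, 708 in replicate 2's only and 1126 in neither. Where a library's own peak overlapped, the median distance between its summit and the joint one was 22 bp in replicate 1 and 31 bp in replicate 2 for the clock peaks, against 13 and 12 bp for the others. Per 100 kb of interval searched the clock genes had 6.61 summits, against 3.42 over the chromosome arms, which include intergenic sequence. The clock peaks fell in 2 classes only, with 8 (53.3%) within 500 bp of some start site and 7 (46.7%) in introns, against 40.2% and 38.6% of the others. Of those 8, 4 were at clock gene starts and the other 4 at starts of the neighbours Fibp, Deaf1, CG32369 and Sox100B. The clock peaks were chosen for lying in a gene or within 5 kb of it, while 878 of the other 4684 peaks were intergenic. The class shares are therefore not compared like for like.

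The 4 clock promoter summits lay away from the start site itself. They were 228 bp (vri), 234 bp (cry), 316 bp (dco) and 414 bp (Pdp1) upstream, so that within 200 bp of a start 0 of 9 clock genes had a summit, against 11.8% of all genes. Of the 1891 main-list summits within 500 bp of the nearest start, 1361 (72.0%) were within 200 bp and 426 (22.5%) were 200 to 500 bp upstream, with a median distance of 122 bp. The clock summits therefore sat in the less common position. With 4 summits this is a description of these genes.

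Base composition varied among the clock peaks. The AT content over the summit and 50 bp either side had a median of 72.3% over the 15, with a range of 45.5 to 78.2%, against a median of 66.3% for the other peaks. In windows 500 bp to the right the medians were 57.4% and 56.4%. The summit was richer in A and T than that flank in 11 of 15 clock peaks (73.3%), against 68.7% of the others. The highest value was 78.2%, at the Pdp1 summit 7863962, followed by 77.2% at the cry promoter, 76.2% at the strongest Pdp1 intron peak and 75.2% at the Pdp1 promoter. The dco intron and the first cyc peak, near Fibp, had 74.3%. The cwo intron and the dco peak near Sox100B had 72.3%, and the vri promoter 64.4%. The lowest values were 45.5% at the weakest vri peak and 46.5% at the dco promoter. Next were 47.5% at the second cyc peak, near Deaf1, and 51.5% at the Pdp1 peak near CG32369. The low values thus included the strongest clock peak and some of the weakest.

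**Figure D4:**
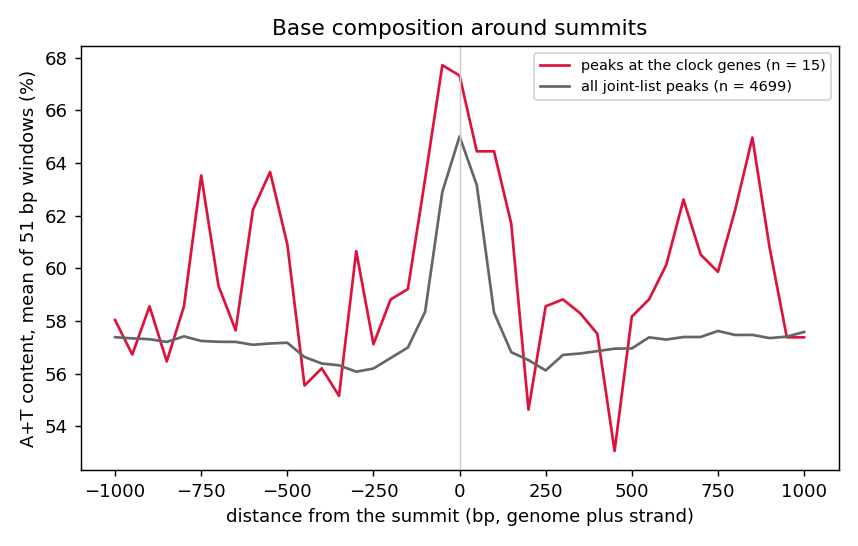
Mean AT content in percent of 51 bp windows at distances up to 1 kb from the summit, for the 15 clock peaks and for all main-list peaks, which include them. At the summit the means are 67.3% and 65.0%. The line of all peaks falls smoothly to either side, while that of the 15 is uneven along its whole length.

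The motifs searched, on both strands, were the E-box of CLK and CYC, which is CACGTG, and its variant, which is CACGTTG. The core of the VRI and PDP1 site, TTATGTAA, was searched, as was another hexamer of the E-box family, spelled CAGCTG. Motifs of promoter and insulator proteins were TATCGATA for DREF, its last letters CGATA for BEAF-32, GGTCACACT for M1BP, GAGAGAG for the GAGA factor and CAGGTAG for Zelda. A run of 7 A or T (AAAAAAA) and AGGTGGCGC were added after values were seen. Each window was the summit and 50 bp either side. None of the 15 clock windows held the E-box, its variant, the VRI and PDP1 core, CAGCTG, or the M1BP, GAGA factor or Zelda motif. With 100 bp either side, CACGTTG was found in 1 of 15, at the weakest vri peak, against 1.36% of all windows of that width. GAGAGAG was found in 1 of 15, at the Pdp1 peak near CG32369, against 3.85%. In the narrower windows, over all 4699 main-list peaks, CACGTG was found in 0.766%, CACGTTG in 0.596%, TTATGTAA in 0.979%, CAGCTG in 3.85%, GGTCACACT in 0.766%, GAGAGAG in 1.53% and CAGGTAG in 0.511%. Matches were found for TATCGATA at the second cyc peak, near the Deaf1 start (1.21% of all windows). CGATA was found at that peak and the cry promoter (13.5%). AAAAAAA was found at the Pdp1 promoter (21.2%) and AGGTGGCGC at the dco promoter (0.851%). A match is a description and not a binding site, and the absence of one says only that the letters are not in that window.

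The dco promoter held 3 copies of AGGTGGCGC within 100 bp of the summit, 2 on the plus strand and 1 on the minus strand. Of the 4699 main-list windows of that length, 53 (1.13%) held at least 1 copy and dco's was the only one with as many as 3. In windows 500 bp to the right the share was 0.277%, with 0 windows holding 3. No other clock peak held a copy. The search was prompted by the sequence itself.

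CACGTG sites were also located over the whole searched intervals. The searched intervals of the 9 genes held 55 CACGTG sites, 24.2 per 100 kb, against 12.2 per 100 kb over the arms. There were 15 at cwo, 14 at Pdp1, 11 at per, 4 at vri, 3 at dco and 2 each at tim, Clk, cyc and cry. Within 100 bp of a main-list summit lay 0 of the 55, against 0.614% of the 16785 sites on the arms, a share too low to tell the clock genes from the rest. The closest were 207 bp away at Pdp1, 448 bp at dco and 501 bp at cwo. In replicate 2's own list 1 of the 55 was within 100 bp, against 0.530% of all sites. It is the Pdp1 site at 7860006-7860011, 16 bp from the summit at 7860025 that replicate 1's own list lacks. At tim, a CACGTG at 3507417-3507422 fell inside the replicate 2 call that missed the threshold. For TTATGTAA, the intervals held 28 sites, and the closest to a summit was 275 bp away, at Pdp1.

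A wider list held 34 genes of the clock, chosen by role. Of these, 8 had a promoter summit in the main list (23.5%), against the 17.1% of all genes given above. In the gene body and 5 kb either side 24 had one (70.6%), against 45.3%. The wider list holds many long genes, and this share was not split by span. Over all genes it was 40.7% under 5 kb, 56.3% at 5 to under 20 kb and 66.2% at 20 kb or more. Replicate 1's own list held 5 of the 34 promoters (14.7%), against 12.9% of all genes, and replicate 2's 6 (17.6%), against 14.1%. Both own lists held 3 (8.82%), against 10.8% of all genes, so the wider list was near the background there. By role, promoter summits were found for 3 of 8 kinases and phosphatases, 1 of 5 degradation genes, 1 of 6 transcription and chromatin genes, 2 of 6 RNA and translation genes and 1 of 9 output and network genes. Body summits were found for 7 of 8, 3 of 5, 6 of 6, 3 of 6 and 5 of 9 in the same order.

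The 3 wider-list promoters bound in both libraries belonged to sgg, Fbxl4 and Eip75B. The strongest was sgg, the GSK3 kinase that phosphorylates TIM, with a peak at chrX:2646327-2646560 (signal 439.3, rank 279), above the dco promoter at rank 398. Fbxl4, an F-box gene, had a promoter peak at chrX:14238150-14238335 (signal 353.2, rank 422), and Eip75B, a nuclear receptor gene, one at chr3L:17999582-17999931 (signal 168.4, rank 1432) among 11 summits over the gene and its flanks. The other 5 were found in a single library's own list. They were qsm (signal 124.4) and CkIIbeta (103.3), the regulatory subunit of casein kinase 2, in replicate 1, and tyf (110.9), which promotes per translation, mts (109.8), a phosphatase subunit, and Atx2 (89.9), a partner of TYF, in replicate 2. The kinase genes sgg and dco had the strongest promoter peaks among the clock genes and the wider list together.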

How the data were processed

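The values are deposited peak lists on the dm6 assembly, made with a control DNA alignment as a second input, per the description deposited with each library. The aligner and peak caller were not given in the sources used here. In all lists the authors give a signal per peak (scaling not stated), a score per peak (at least 830 in the thresholded lists and capped at 1000), the summit offset and, in the ranked lists, the deposited −log10 IDR. The main list was the conservative joint list, with 4746 peaks, of which 4699 are on the arms and were used.

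Each library's own thresholded list held 3012 (replicate 1) and 3537 (replicate 2) peaks on the arms, and its ranked list 113626 and 77048. Summits were the interval start plus the offset. A gene was counted when a summit lay within 500 bp of an annotated TSS, or in the gene body and 5 kb either side (Ensembl release 115, BDGP 6.54). Joint and own peaks were matched by an overlap of at least 1 bp. Motifs were searched in 101 and 201 bp windows. Coordinates are 1-based. The searches were checked on simulated positions. Python 3.11.15, numpy 2.4.6, pandas 2.3.3, scipy 1.17.1 and matplotlib 3.10.9 were used.

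The clock genes, the wider list and the motifs were chosen with earlier results of these data known, so no set test was run. No replicate group or condition is compared, and replicates are shown side by side by rank. Named are all 9 clock genes, wider-list genes with a main-list promoter summit (up to 8 by signal), genes that share a clock gene's summit, and the strongest ranked promoter call of clock genes without a main-list promoter summit. Hn was named outside this rule, after its values were seen. Promoter width, flank, motif window, the choice of joint or single-library list, the upper 50% by signal and merging of summits within 1 kb were varied.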

Additional observations from a re-analysis of the deposited data

How the results depend on the processing

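The 4 clock genes with a promoter summit were 4 with a 1000 bp promoter, in the other joint list and in each library's own list (4 to 4 without either replicate), 3 in the upper 50% of the list by signal and 0 with a 200 bp promoter, since their summits lie 228 to 414 bp upstream. The 6 with a summit in the gene body and 5 kb either side were 5 to 6 without either replicate, and 4 in the gene body only and in the upper 50%. The 15 clock summits were 12 to 12 without either replicate, 16 in the other joint list, 7 in the upper 50% and 9 in the gene body only. The wider list's 8 promoters were 5 without replicate 2, 6 without replicate 1, 4 in the upper 50% and 4 with a 200 bp promoter, and its 24 genes by the wider interval were 21 to 24 without either replicate. Of 123 values under alternatives, 94 stayed within 1.5 times the count (percentiles, within the spread between libraries) and 29 moved further. Counts and percentiles have no direction, so none could reverse. The 94 include summit counts of 0 at per, tim and Clk, which stricter settings such as the upper 50% could not change. In wider motif windows, CACGTTG and GAGAGAG each had 1 match in place of 0, and AAAAAAA 3 in place of 1. No paired analysis was possible because there was 1 group and no test. Depth is unknown, so a missing peak at per, tim or Clk means no call above the authors' threshold.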
